A study of Mus musculus with 9 samples.

Results

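Endoplasmic reticulum (ER) folding and heat shock genes were followed across mouse brain tumor stem cells (BTSC) with and without a Gpd1 knockout (KO). The set was drawn up by gene name and holds 43 of the 21899 genes in the deposited table, all of them found by symbol. It has 22 genes of folding and quality control in the ER, 18 of the cytosolic heat shock machinery and 3 mitochondrial chaperones. Of these, 42 had a mean normalized read count of at least 10 over the 9 libraries and were tested, and Hspb1 was not.

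Secreted and membrane proteins fold in the ER with the help of chaperones and disulfide isomerases, and chains that fail are sent back to the cytosol for degradation. When unfolded protein builds up, the sensors IRE1, ATF6 and PERK switch on the unfolded protein response, which raises many of these folding genes through promoter elements bound by ATF6, by spliced XBP1 or by ATF4. In the cytosol and the mitochondria, Hsp70, Hsp90 and chaperonin systems do the comparable work, and heat shock factors raise many of their genes when proteins are damaged.

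Poly(A) RNA was sequenced from 3 sgRNA1 KO libraries, 3 sgRNA2 KO libraries and 3 control BTSC libraries. Both KO groups had been transfected with Cas9 and a guide against Gpd1, the cytosolic glycerol-3-phosphate dehydrogenase, then selected with puromycin and expanded from picked colonies that each began as 1 cell. Whether the control cells also came from picked colonies is not given by the labels, nor is any age, sex or strain of the source. The titles of a guide's KO libraries carry different numbers, which the labels do not explain. Effects of transfection, selection or cloning cannot be told apart from loss of Gpd1 if the controls did not go through the same steps. Nor do the labels state that the libraries of a group came from separate cultures, so the p-values measure the spread between these libraries, which may be technical.

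The values are the authors' normalized read counts, which sum to between 39781901 and 42975283 per library. Gpd1 itself stood at 3299, 1347 and 21351 in sgRNA1 KO, at 10812, 10812 and 6945 in sgRNA2 KO, and at 25106, 26566 and 25836 in control. Its log2 fold change was -1.985 in KO (limma adjusted p 0.0516), -2.501 with sgRNA1 (0.0391) and -1.47 with sgRNA2 (0.203). The same value of 10812 stands in 2 sgRNA2 KO libraries, and control replicate 3 equals the mean of the other 2 controls. Among genes averaging over 1000 in the group, the first holds for 6 of 7475 genes and the second, within 0.5, for 37 of 7555, and neither is explained by the labels. The library labelled sgRNA1 KO replicate 3 thus kept 82.6% of the control mean, although a small deletion or insertion made by Cas9 need not lower the transcript. By the median log2 ratio of the members to the control mean, the KO libraries nearest the controls in each of the 3 compartments described below were this one and sgRNA2 KO replicate 1. Members that fell in KO numbered 26 without the first and 26 without both, as with all libraries. The labelled cell type was checked by Olig2, at 26003 to 39961 in KO and 36225 to 38291 in control, and by Sox2, at 11565 to 23374 in KO and 7105 to 8756 in control. The stem cell marker Prom1 stood at only 3 to 31 in KO and 7 to 15 in control. Of the 8 stem cell markers, Sox2 rose and 3 fell in KO, namely Nes (log2 fold change -1.36), Vim (-0.93) and Cd44 (-1.51), each with every KO library under every control. Among all tested genes, 20.2% fell, 19.1% rose and 23.8% had every KO library under every control. The 8 summed to 221326 to 309089 in KO and 335509 to 380513 in control. Proliferation genes moved with the KO. Their summed level was 24946 to 112795 in KO and 166240 to 174348 in control, and 7 of the 10 fell. All 10 passed with sgRNA1 and 0 with sgRNA2, where 18.9% and 10.7% of all tested genes fell. Every KO library was nevertheless under every control for all 10. The 6 astrocyte markers summed to 84449 to 200323 in KO and 67402 to 72380 in control, with Slc1a2 and Glul higher. The other 4, Gfap, Aqp4, Slc1a3 and Aldh1l1, did not pass. Over the 6 markers the log2 fold change ran from -0.589 to 2.508, so they did not all rise. Of the oligodendrocyte markers, Cnp was higher, at 9155 to 20149 in KO and 4074 to 5341 in control, Cldn11 was lower, at 17 to 44 in KO and 107 to 184 in control, and Mbp, Mog and Mag stayed between 0 and 14 in all libraries. The 5 neuronal markers summed to 47435 to 125607 in KO and 42747 to 44048 in control, nearly all from Map2, with Snap25 between 1 and 10. The 4 microglial markers found summed to 39 to 52 in KO and 75 to 94 in control, mostly from Cd68, with Ptprc between 0 and 4. The 3 endothelial markers found summed to 42 to 204 in KO and 139 to 186 in control. The 3 fibroblast and pericyte markers found summed to 19 to 39 in KO and 95 to 113 in control, with Pdgfrb between 0 and 4. The part of these shifts in the results below was not tested.

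Most folding genes were lower in KO cells. Of the 42 tested members, 26 fell in KO (n = 6) against control (n = 3), 1 rose and 15 did not pass the test, which is limma with Benjamini-Hochberg adjustment over all 15827 genes tested and a threshold of 0.05. Among all tested genes, 20.2% fell and 19.1% rose, 39.3% in all. The median log2 fold change was -0.677 for the members and -0.013 for all tested genes. Every KO library lay under every control for 25 members, against 23.8% of all tested genes, and over every control for 2, Sel1l and Atf6, against 21.1%. In RNA from whole cultures, fewer cells that make a transcript and less transcript per cell cannot be told apart.

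**Figure D1:**
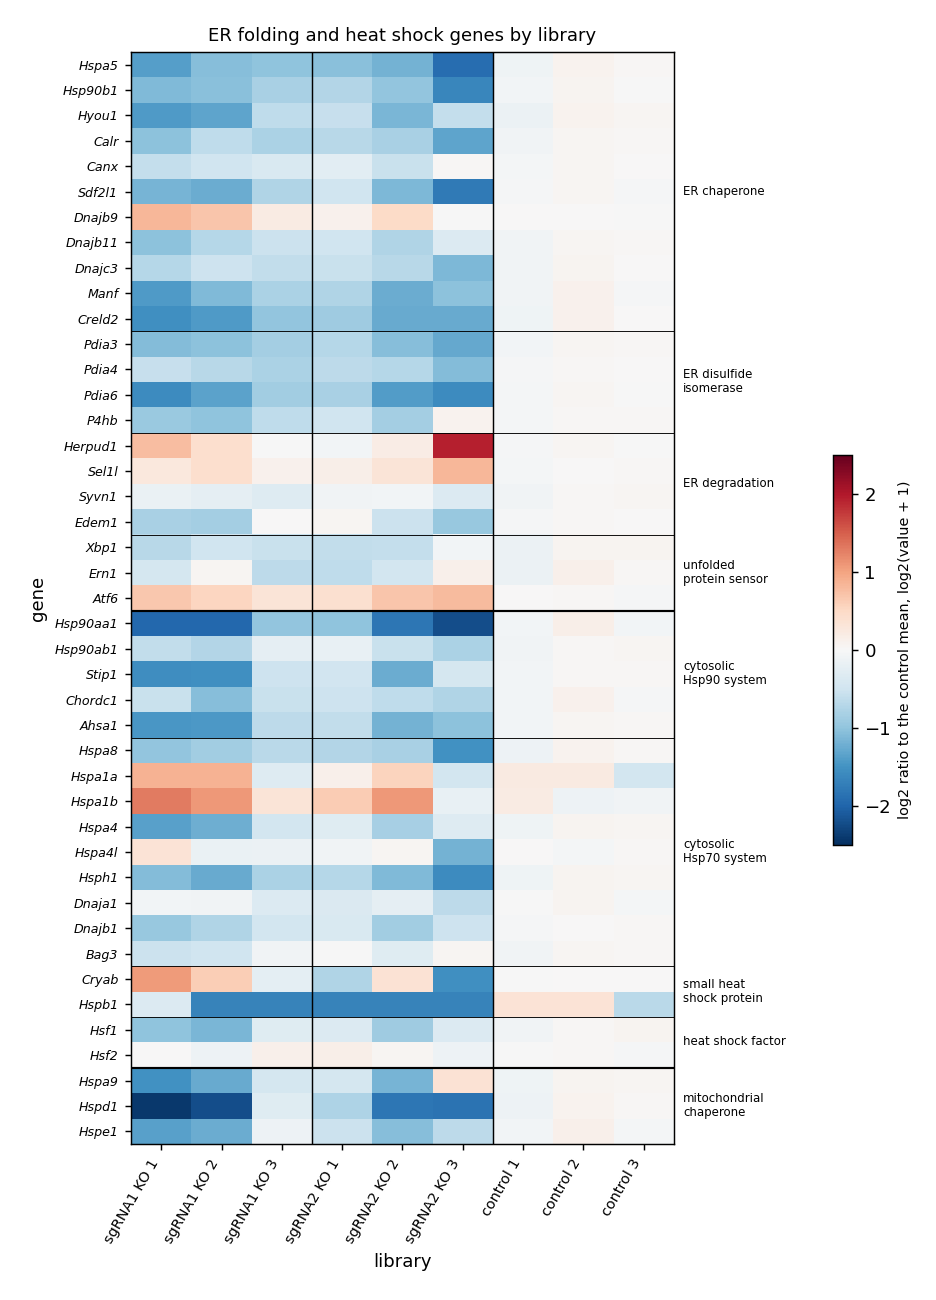
Each cell is log2(value + 1) minus the mean of the controls for 1 gene (rows, grouped by role) in 1 library (columns, with sgRNA1 KO and sgRNA2 KO left of control). Most rows of ER chaperones, isomerases and the Hsp90 system are blue in the KO libraries, while Atf6 is red in all 6 and Herpud1 is darkest red in sgRNA2 KO replicate 3. The Hspb1 row rests on counts of 1 to 7.

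Members of each compartment fell with all libraries in the fit. In the ER, 14 of 22 members fell and 1 rose, with a median log2 fold change of -0.675. In the cytosol, 10 of 17 tested members fell and none rose, with a median of -0.655. Of the 3 mitochondrial chaperones, 2 fell, with a median of -0.828. Without any 1 control, 0 mitochondrial and 6 cytosolic members fell, and without sgRNA2 KO replicate 2 the mitochondrial count was 1. Summed over its tested members, the ER group took 0.386% to 0.497% of each KO library and 0.683% to 0.716% of each control library. The cytosolic group took 0.309% to 0.467% in KO and 0.519% to 0.552% in control, and the mitochondrial group 0.0453% to 0.127% in KO and 0.146% to 0.161% in control.

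**Figure D2:**
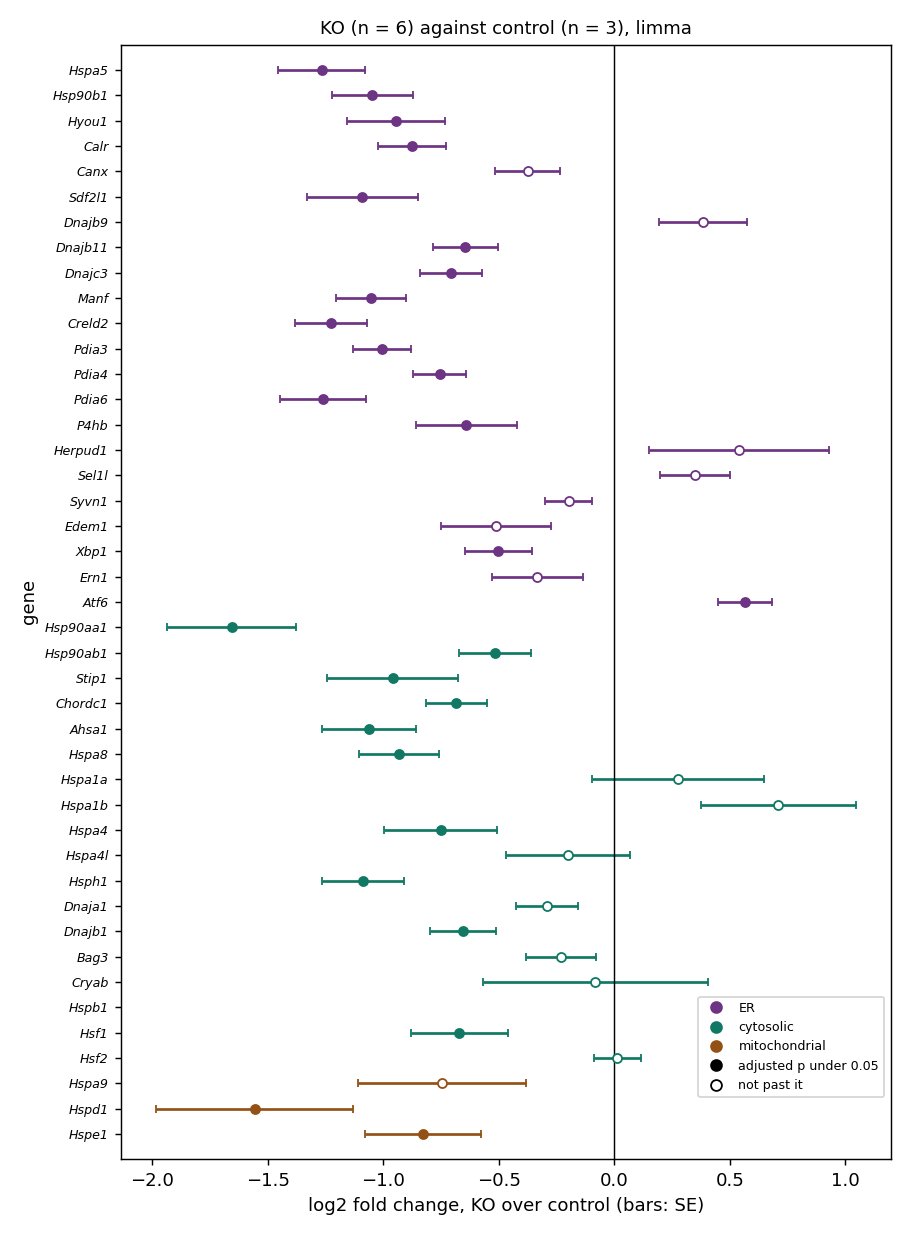
The log2 fold change of each member in KO (n = 6) over control (n = 3), from limma, with bars of 1 standard error. Filled points passed an adjusted p of 0.05: 26 lie left of 0 and 1 (Atf6) lies right of it, and Hspb1 has no point because it was not tested.

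Per kilobase of exon, the levels in control cells spanned several orders of magnitude. Hsp90ab1 was the highest at 42194 ± 2106 normalized reads per kilobase (SD, n = 3). Calr followed at 12879 ± 637, above a cluster in which Pdia3 (10345 ± 445), P4hb (10300 ± 284) and Hspd1 (10280 ± 773) did not differ beyond their spread. Hspa5 came next at 9323 ± 620. The stress-inducible Hspa1b (11.4 ± 1.6), Hspb1 (5.5 ± 2.2) and Hspa1a (4.4 ± 1.2) were the lowest. The sensors Atf6 (368 ± 6.9) and Ern1 (129 ± 11.6) and the IRE1 target Xbp1 (723 ± 60.4) were modest.

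ER chaperones and their cofactors were mostly lower. Of 11 members, 9 fell, none rose, and Canx and Dnajb9 did not pass the test, with a median log2 fold change of -0.945. All 9 had every KO library under every control. Several of them carry the ER stress response element (ERSE) in the promoter, a site known to be bound by ATF6 together with the factor NF-Y. The promoters of 4 of them and of the isomerase Pdia6 are printed from the RefSeq table for GRCm38.p6, 5′ to 3′ on the gene's own strand and ending at the base before the annotated start site. Capitals mark each match to the ERSE, which is CCAAT, 9 bases of any kind and CCACG, or on the other strand CGTGG, 9 bases of any kind and ATTGG.
Hspa5, chr2:34771970-34772089, plus strand: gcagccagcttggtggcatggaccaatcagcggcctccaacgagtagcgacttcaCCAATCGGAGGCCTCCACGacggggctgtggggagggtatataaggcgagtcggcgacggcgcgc
Hsp90b1, chr10:86705445-86705664, minus strand: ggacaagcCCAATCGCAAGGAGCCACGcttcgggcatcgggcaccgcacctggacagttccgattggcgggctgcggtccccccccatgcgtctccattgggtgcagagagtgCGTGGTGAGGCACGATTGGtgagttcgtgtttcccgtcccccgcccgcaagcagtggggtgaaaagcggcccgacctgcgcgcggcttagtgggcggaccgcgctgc
Calr, chr8:84846932-84847111, minus strand: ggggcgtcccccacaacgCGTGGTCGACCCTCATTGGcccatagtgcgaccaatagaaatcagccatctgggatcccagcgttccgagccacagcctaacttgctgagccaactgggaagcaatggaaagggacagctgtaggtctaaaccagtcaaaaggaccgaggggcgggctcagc
Creld2, chr15:88819506-88819645, plus strand: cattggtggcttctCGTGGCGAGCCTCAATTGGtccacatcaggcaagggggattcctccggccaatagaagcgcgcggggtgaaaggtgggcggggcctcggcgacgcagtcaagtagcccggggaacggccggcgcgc
Pdia6, chr12:17266469-17266588, plus strand: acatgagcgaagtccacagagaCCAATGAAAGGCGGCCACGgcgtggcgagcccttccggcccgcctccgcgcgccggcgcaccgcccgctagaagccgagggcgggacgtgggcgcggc

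Hspa5 (ENSMUSG00000026864, mm10 chr2:34771970-34777547, plus strand) encodes BiP, the main Hsp70 of the ER and the chaperone that holds the stress sensors inactive. It had 15059, 18737 and 19544 normalized reads in sgRNA1 KO, 19086, 17271 and 10527 in sgRNA2 KO, and 36528, 41628 and 40129 in control. All 6 KO libraries lay well under the lowest control, and sgRNA2 KO replicate 3 was the lowest of them. The mean was 16704 ± 3437 in KO (SD, n = 6) and 39428 ± 2621 in control (SD, n = 3), a log2 fold change of -1.27 (SE 0.19, limma adjusted p 0.00171). Its ERSE lies 65 to 47 bases before the start site.

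Creld2 encodes an ER protein that ER stress induces and that is partly secreted. Its normalized read counts were 991, 1085 and 1464 in sgRNA1 KO, 1559, 1201 and 1198 in sgRNA2 KO, and 2686, 3102 and 2893 in control. The groups did not overlap, with a log2 fold change of -1.23 (SE 0.15, limma adjusted p 0.000911). Sdf2l1, a partner of the BiP cofactor Dnajb11, had 590, 554 and 782 in sgRNA1 KO, 932, 601 and 387 in sgRNA2 KO, and 1295, 1355 and 1297 in control. Sdf2l1 thus gave a log2 fold change of -1.09 (SE 0.24, limma adjusted p 0.00769), and sgRNA2 KO replicate 3 was again the lowest library. Dnajc3, also called p58IPK, is a BiP cochaperone. It had 4081, 4676 and 4401 in sgRNA1 KO, 4586, 4137 and 3084 in sgRNA2 KO, and 6353, 7067 and 6784 in control, a log2 fold change of -0.71 (SE 0.14, limma adjusted p 0.0046). The other 5 that fell were Hsp90b1 (GRP94, the Hsp90 of the ER), Manf (a secreted survival factor kept in the ER), Hyou1 (the exchange factor of BiP), Calr (calreticulin, a chaperone of glycoproteins) and Dnajb11. Their log2 fold changes ran from -1.05 in Manf to -0.64 in Dnajb11.

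Canx and Dnajb9 were the exceptions among the ER chaperones. Canx, the membrane-bound relative of Calr, had 27559, 29272 and 32159 in sgRNA1 KO, 34723, 28459 and 42601 in sgRNA2 KO, and 40289, 42777 and 41827 in control. All KO libraries but sgRNA2 KO replicate 3, which was among the controls, were under them. Its log2 fold change was -0.37 (limma adjusted p 0.0573), and it was -0.46 without sgRNA2 KO replicate 3 (adjusted p 0.00619). Dnajb9, a BiP cofactor that hands clients to degradation and represses IRE1, had 1933, 1751 and 1253 in sgRNA1 KO, 1158, 1502 and 1071 in sgRNA2 KO, and 1083, 1090 and 1071 in control. It was higher in sgRNA1 KO than in control by a log2 fold change of 0.58 (SE 0.19, limma adjusted p 0.0433), and sgRNA2 KO gave 0.19 (adjusted p 0.497). The sgRNA1 call was lost without any 1 control (adjusted p 0.104 to 0.118), without sgRNA1 KO replicate 1 (0.148) or 2 (0.126), and without sgRNA2 KO replicate 1 (0.0567), which shares the fit. Testing with no filter on low values also ended that call (limma adjusted p 0.0533).

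All 4 ER disulfide isomerases fell in KO, with a median log2 fold change of -0.881. These enzymes form and reshuffle the disulfide bonds of proteins in the ER. Pdia6 (ENSMUSG00000020571, mm10 chr12:17266545-17284770, plus strand), also called P5, had 5659, 6724 and 9227 in sgRNA1 KO, 9656, 6376 and 5641 in sgRNA2 KO, and 16388, 17404 and 16879 in control. No KO library came near the controls, and the log2 fold change was -1.26 (SE 0.19, limma adjusted p 0.00169). Pdia3 (ERp57), the partner of calnexin and calreticulin, had 15384, 16025 and 17898 in sgRNA1 KO, 19686, 15415 and 13325 in sgRNA2 KO, and 30888, 33519 and 33014 in control. For Pdia3 the log2 fold change was -1.005 (SE 0.12, limma adjusted p 0.000846). Pdia4 (ERp72) had 10091, 9289 and 8673 in sgRNA1 KO, 9509, 9173 and 7102 in sgRNA2 KO, and 14681, 15319 and 15190 in control, a log2 fold change of -0.76 (SE 0.12, limma adjusted p 0.00186). The groups did not overlap for these 3 genes.

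P4hb, the founding disulfide isomerase, differed in 1 library, and its values are given because of that library. It had 15438, 14600 and 18966 in sgRNA1 KO, 20928, 16246 and 31357 in sgRNA2 KO, and 28532, 29886 and 29985 in control, so sgRNA2 KO replicate 3 was above every control. The log2 fold change was -0.64 (SE 0.22, limma adjusted p 0.0412). The call was lost without control replicate 1 (adjusted p 0.0949), 2 (0.122) or 3 (0.12), without sgRNA1 KO replicate 1 (0.0713), 2 (0.068) or 3 (0.0545), and without sgRNA2 KO replicate 2 (0.0785). Leaving out both libraries nearest the controls also ended it (limma adjusted p 0.0596).

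Genes of ER degradation gave no call in KO against control. These proteins carry misfolded chains out of the ER, and none of the 4 members passed the test, with a median log2 fold change of 0.076. Since 20.2% of all tested genes fell and 19.1% rose, no call among 4 genes is not a result about this group. The 4 ran from -0.512 in Edem1 to 0.54 in Herpud1, so the median near 0 covers genes on both sides. Sel1l, the adaptor of the ubiquitin ligase Hrd1, stood above the controls in all KO libraries, at 6915 to 11377 in KO and 6226 to 6506 in control (log2 fold change 0.35, limma adjusted p 0.0901). It passed without sgRNA2 KO replicate 3 (log2 fold change 0.25, adjusted p 0.0419). Syvn1, which encodes Hrd1 itself, was at 1851 to 2236 in KO and 2212 to 2403 in control, with all 6 KO libraries under the control mean (log2 fold change -0.197, limma adjusted p 0.141). Edem1, a lectin-like factor that takes glycoproteins out of the folding cycle, was at 1568 to 3134 in KO and 2952 to 3077 in control. Its log2 fold change was -0.51 (limma adjusted p 0.112), and it passed without sgRNA1 KO replicate 3 (adjusted p 0.0467) or sgRNA2 KO replicate 1 (0.041), the 2 libraries nearest the controls. Without both, the log2 fold change of Edem1 was -0.787 (limma adjusted p 0.00168).

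Herpud1 (ENSMUSG00000031770, mm10 chr8:94386438-94395377, plus strand) is a small membrane protein of the Hrd1 complex and one of the genes that ER stress raises most. It is shown because its promoter holds both an ERSE-II, which is ATTGG, 1 base of any kind and CCACG, and a copy of TGATGNAA, the core of elements bound by ATF4 dimers. Both are in capitals, the second as its other strand, TTNCATCA. The sequence ends at the base before the RefSeq start site (GRCm38.p6).
Herpud1, chr8:94386309-94386428, plus strand: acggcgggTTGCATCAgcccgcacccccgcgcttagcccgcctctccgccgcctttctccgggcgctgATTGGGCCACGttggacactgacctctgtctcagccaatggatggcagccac
Herpud1 had 978, 770 and 570 normalized reads in sgRNA1 KO, 544, 653 and 2199 in sgRNA2 KO, and 563, 591 and 566 in control. The KO and control ranges overlapped, and sgRNA2 KO replicate 3 stood far above the other 5 KO libraries. The log2 fold change was 0.54 (SE 0.39, limma adjusted p 0.289), and it was 0.26 without that library (adjusted p 0.283).

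The genes of the sensors and of their target Xbp1 did not move together. Atf6 rose, Ern1 did not pass the test, and Xbp1, which is not itself a sensor, fell. Atf6 (ENSMUSG00000026663, mm10 chr1:170704674-170867771, minus strand) encodes the sensor that is cleaved in the Golgi to free a transcription factor. It had 5416, 4898 and 4231 in sgRNA1 KO, 4498, 5491 and 5849 in sgRNA2 KO, and 3421, 3443 and 3324 in control. Every KO library was above every control, with a log2 fold change of 0.57 (SE 0.12, limma adjusted p 0.00626), and it was the only member that rose in KO against control. Ern1, which encodes IRE1, had 774, 1087 and 667 in sgRNA1 KO, 677, 764 and 1138 in sgRNA2 KO, and 950, 1138 and 1063 in control. Its groups overlapped, with a log2 fold change of -0.33 (SE 0.20, limma adjusted p 0.2).

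Xbp1 (ENSMUSG00000020484, mm10 chr11:5520659-5525893, plus strand) is the transcript that IRE1 splices. Gene-level counts do not tell its spliced and unspliced forms apart. It had 1448, 1668 and 1587 in sgRNA1 KO, 1540, 1541 and 2244 in sgRNA2 KO, and 2123, 2454 and 2471 in control. All KO libraries but sgRNA2 KO replicate 3, which was within the control range, were under every control. Its log2 fold change was -0.50 (SE 0.15, limma adjusted p 0.0225). The call was lost without control replicate 2 (adjusted p 0.096) or 3 (0.0948), and with quantile scaling of all libraries (0.0518).

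**Figure D3:**
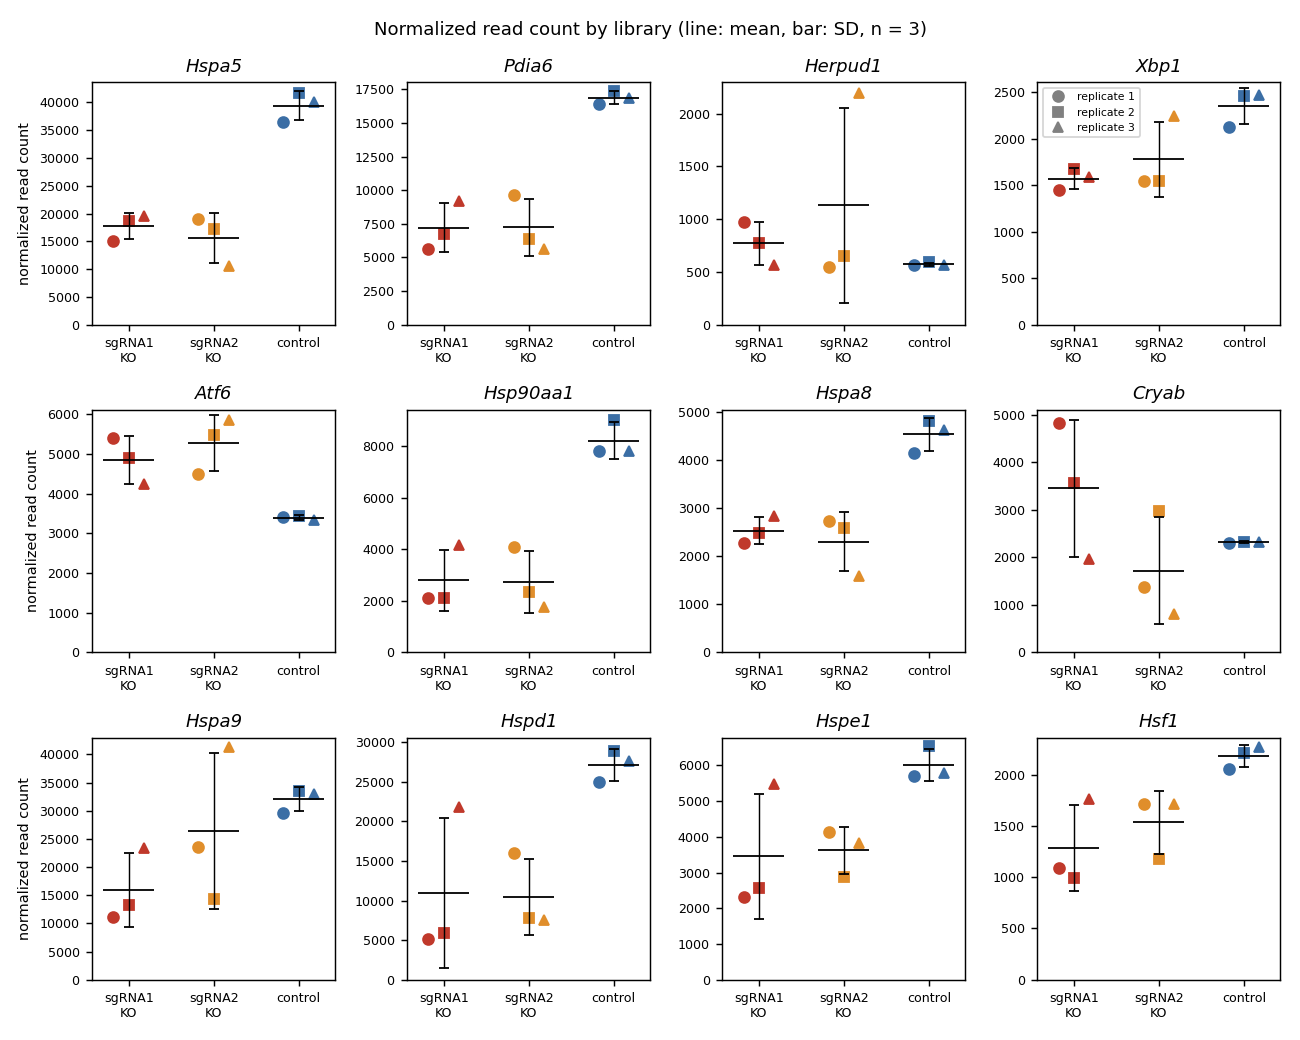
Normalized read counts of 12 members in each library, with 1 marker shape per replicate number, a line at the mean and a bar of 1 SD (n = 3 per group). sgRNA2 KO replicate 3 (orange triangle) is lowest for Hspa5 (10527) and Hspa8 (1594) and highest for Herpud1 (2199), Xbp1 (2244 among KO libraries) and Hspa9 (41401).

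In the cytosol, all 5 members of the Hsp90 system fell in KO, with a median log2 fold change of -0.959, and every KO library was under every control for each. Hsp90aa1 (ENSMUSG00000021270, mm10 chr12:110690605-110702728, minus strand), the stress-inducible Hsp90, had 2101, 2110 and 4143 in sgRNA1 KO, 4082, 2331 and 1757 in sgRNA2 KO, and 7794, 9025 and 7796 in control. This was the lowest log2 fold change of all members, at -1.66 (SE 0.28, limma adjusted p 0.00279). Ahsa1, which speeds up the ATPase of Hsp90, had 2282, 2310 and 3985 in sgRNA1 KO, 4096, 2767 and 3077 in sgRNA2 KO, and 5958, 6452 and 6409 in control. For Ahsa1 the log2 fold change was -1.06 (SE 0.20, limma adjusted p 0.00442). In both genes the KO libraries closest to control were sgRNA1 KO replicate 3 and sgRNA2 KO replicate 1.

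Stip1, or Hop, which passes clients between Hsp70 and Hsp90, had 5346, 5382 and 10926 in sgRNA1 KO, 11296, 6606 and 11585 in sgRNA2 KO, and 14972, 16009 and 15971 in control. The KO libraries fell into a lower and a higher trio that crossed the guides, all under the controls. The log2 fold change was -0.96 (SE 0.28, limma adjusted p 0.0245), and the call was lost without control replicate 1 (adjusted p 0.0647), 2 (0.0858) or 3 (0.0826). The constitutive Hsp90ab1 was at 72699 to 111332 in KO and 119281 to 130793 in control, a log2 fold change of -0.52 (SE 0.16, limma adjusted p 0.0257). It missed the threshold without control replicate 1 (0.0594), 2 (0.0959) or 3 (0.0956), and with quantile scaling of all libraries (0.123). Chordc1, an Hsp90 cochaperone, had a log2 fold change of -0.68 (SE 0.13, limma adjusted p 0.00489). Within a library, the ratio of the inducible to the constitutive Hsp90 (Hsp90aa1 over Hsp90ab1) was 0.0242 to 0.0383 in KO and 0.0596 to 0.0697 in control, with no overlap.

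The Hsp70 system was divided. Of 9 members, 4 fell and 5 did not pass, with a median log2 fold change of -0.292. Hsph1, or Hsp110, a nucleotide exchange factor of Hsp70, had 5022, 4422 and 6182 in sgRNA1 KO, 6482, 4945 and 3590 in sgRNA2 KO, and 9886, 11158 and 10949 in control. Its log2 fold change was -1.09 (SE 0.18, limma adjusted p 0.00241) with no overlap between the groups. Hspa8, the constitutive Hsc70, had 2285, 2484 and 2837 in sgRNA1 KO, 2725, 2579 and 1594 in sgRNA2 KO, and 4158, 4827 and 4638 in control, a log2 fold change of -0.93 (SE 0.17, limma adjusted p 0.00416). Dnajb1, the Hsp40 that delivers clients to Hsp70, fell by 0.66 on the log2 scale (SE 0.14, limma adjusted p 0.00773).

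Hspa4, a relative of Hsph1, had 12656, 13835 and 23429 in sgRNA1 KO, 26246, 18102 and 25733 in sgRNA2 KO, and 30153, 33689 and 33255 in control. All KO libraries were under the controls, with a log2 fold change of -0.75 (SE 0.24, limma adjusted p 0.0349). That call was lost without control replicate 1 (adjusted p 0.0767), 2 (0.115) or 3 (0.108), without sgRNA1 KO replicate 2 (0.0556) and without sgRNA2 KO replicate 2 (0.0647). Quantile scaling of all libraries also ended it (limma adjusted p 0.0517). The members that did not pass were Hspa1a, Hspa1b, Hspa4l, Dnaja1 and Bag3. Hspa1a and Hspa1b, the classical heat-inducible Hsp70 genes, were near the floor of the data. Hspa1a was at 9 to 24 normalized reads in KO and 9 to 15 in control, and Hspa1b at 28 to 80 in KO and 29 to 37 in control. Hspa1b passed upward without sgRNA2 KO replicate 3 (log2 fold change 0.89, limma adjusted p 0.023), and with all libraries its log2 fold change was 0.71 (adjusted p 0.114).

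The small heat shock proteins gave no call. Hspb1 was at 4, 1 and 1 in sgRNA1 KO, at 1 in each sgRNA2 KO library, and at 7, 7 and 3 in control, too low to be tested. Cryab, an abundant small chaperone of glial cells, had the largest standard error of any tested member on the log2 scale, at 4829, 3560 and 1955 in sgRNA1 KO, 1379, 2971 and 801 in sgRNA2 KO, and 2303, 2322 and 2331 in control. The controls lay inside the KO range, with a log2 fold change of -0.08 (SE 0.49, limma adjusted p 0.903). These values of Cryab are given because of their scatter.

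The heat shock factors differed from each other. Hsf1, the main activator of heat shock genes, had 1089, 993 and 1765 in sgRNA1 KO, 1716, 1177 and 1710 in sgRNA2 KO, and 2059, 2214 and 2270 in control. All KO libraries were under the controls, with a log2 fold change of -0.67 (SE 0.21, limma adjusted p 0.0301). The call was lost without control replicate 1 (adjusted p 0.071), 2 (0.1) or 3 (0.104), without sgRNA1 KO replicate 1 (0.0509) and without sgRNA2 KO replicate 2 (0.0598). Hsf2, a related factor active in development, had 2567, 2312 and 2770 in sgRNA1 KO, 2810, 2626 and 2320 in sgRNA2 KO, and 2532, 2577 and 2497 in control. Its groups overlapped, with a log2 fold change of 0.01 (SE 0.10, limma adjusted p 0.92).

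Hspd1 and Hspe1 encode the mitochondrial chaperonin Hsp60 and its cochaperonin Hsp10. They lie head to head on mouse chromosome 1, with RefSeq start sites 216 bases apart (GRCm38.p6), and share the stretch between them. The portion nearest the Hspe1 start is printed on the Hspe1 strand, with capitals for 2 overlapping matches to the heat shock element (HSE), which is GAA, TTC and GAA with 2 bases of any kind between them, or on the other strand TTC, GAA and TTC.
Hspe1, chr1:55088038-55088147, plus strand: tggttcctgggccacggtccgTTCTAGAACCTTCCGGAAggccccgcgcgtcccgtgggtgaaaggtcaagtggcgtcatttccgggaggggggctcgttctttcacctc
Hspd1 had 5125, 5861 and 21838 normalized reads in sgRNA1 KO, 15985, 7762 and 7550 in sgRNA2 KO, and 24910, 28899 and 27667 in control. Every KO library was under every control, but sgRNA1 KO replicate 3 and sgRNA2 KO replicate 1 came far closer to control than the other 4. For Hspd1 the log2 fold change was -1.56 (SE 0.43, limma adjusted p 0.0183). Hspe1 had 2327, 2556 and 5474 in sgRNA1 KO, 4147, 2884 and 3825 in sgRNA2 KO, and 5713, 6535 and 5791 in control, a log2 fold change of -0.83 (SE 0.25, limma adjusted p 0.0269). Hspd1 lost its call without control replicate 1 (limma adjusted p 0.051), 2 (0.0719) or 3 (0.0656). Hspe1 lost its call without control replicate 1 (limma adjusted p 0.0676), 2 (0.104) or 3 (0.0777) and without sgRNA2 KO replicate 2 (0.0541).

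Hspa9, or mortalin, the Hsp70 of the mitochondrial matrix, had 11195, 13313 and 23478 in sgRNA1 KO, 23605, 14267 and 41401 in sgRNA2 KO, and 29645, 33553 and 33037 in control. All KO libraries but sgRNA2 KO replicate 3, which was above the controls, were under them. Over all libraries the log2 fold change was -0.75 (limma adjusted p 0.125), and without sgRNA2 KO replicate 3 it was -0.97 (adjusted p 0.0167). Its values are given because that library stood apart.

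The Hsp90 and mitochondrial groups were spread over the KO libraries much as the proliferation genes were. The median log2 ratio to the control mean of the Hsp90 system was -1.46, -1.44 and -0.57 in sgRNA1 KO, with -0.51, -1.18 and -0.80 in sgRNA2 KO. That of the mitochondrial chaperones was -1.52, -1.27 and -0.31 in sgRNA1 KO, with -0.53, -1.17 and -0.65 in sgRNA2 KO. That of 10 proliferation genes was -2.48, -2.72 and -0.50 in sgRNA1 KO, with -0.57, -1.65 and -1.09 in sgRNA2 KO. The KO libraries nearest 0 in all 3 lists were sgRNA1 KO replicate 3 and sgRNA2 KO replicate 1. The ER chaperones spread less, at -1.10, -1.04 and -0.75 in sgRNA1 KO, with -0.58, -0.99 and -1.12 in sgRNA2 KO. The same 2 libraries were nearest 0 there. They were also nearest in the cytosolic chaperonin and prefoldin list described below, at -0.434 and -0.427. In the N-glycosylation list below, sgRNA2 KO replicate 3 was nearest, at 0.072. The order of the libraries was thus not particular to the Hsp90, mitochondrial and proliferation lists. The part of proliferation in these falls was not tested.

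**Figure D4:**
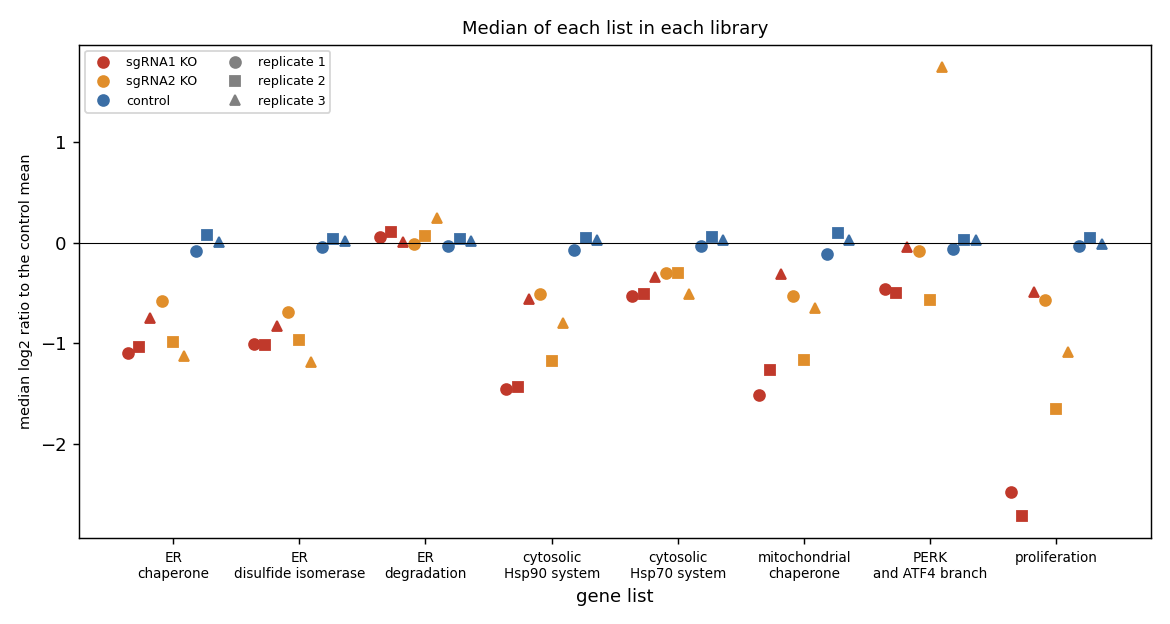
Each point is the median log2 ratio to the control mean over the genes of 1 list in 1 library, by group (colour) and replicate number (shape), with 0 at the control mean. Chaperone, isomerase, Hsp90 and mitochondrial lists lie under 0 in all 6 KO libraries, ER degradation lies near 0, and the PERK and ATF4 branch lies at 1.745 in sgRNA2 KO replicate 3 and under 0 in the other 5 KO libraries.

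sgRNA2 KO replicate 3 combined low chaperones with high stress transcripts. The 12 genes of the PERK and ATF4 branch, the arm of the response that acts on translation and amino acid supply, had a median log2 ratio of 1.745 in that library, against -0.574 to -0.044 in the other 5 KO libraries. Over all KO libraries, none of the 12 rose and 1 fell, Eif2s1. Ddit3, the stress factor CHOP, had 5501 normalized reads there, 341 to 502 in the other KO libraries and 351 to 385 in control. Trib3, a target of CHOP and ATF4, had 5711 there, 16 to 116 in the other KO libraries and 141 to 147 in control. The ratio of Herpud1 to Hspa5 was 0.209 there, 0.0285 to 0.0649 in the other KO libraries and 0.0141 to 0.0154 in control, so this ratio was higher in each KO library than in any control.

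The same library had the highest ratio within each of 3 related pairs. This follows from its high P4hb, Canx and Hspa9 values given above and is not a separate observation. The ratio of P4hb to Pdia3 was 2.35 there, 0.911 to 1.06 in the other KO libraries and 0.892 to 0.924 in control. The ratio of Canx to Calr was 2.85 there, 1.22 to 1.51 in the other KO libraries and 1.10 to 1.15 in control. The ratio of Hspa9 to Hspd1 was 5.48 there, 1.07 to 2.27 in the other KO libraries and 1.16 to 1.19 in control. Other pairs went differently. Hspd1 to Hspe1 was lowest there, at 1.974, against 2.202 to 3.989 in the other KO libraries and 4.36 to 4.778 in control. Hspa5 to Hsp90b1 was 1.015 there, within the 0.9925 to 1.203 of the other KO libraries. Without that library, 28 members fell and 3 rose (Atf6, Sel1l and Hspa1b) in KO against control. The share of all tested genes called without it is not given here.

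**Figure D5:**
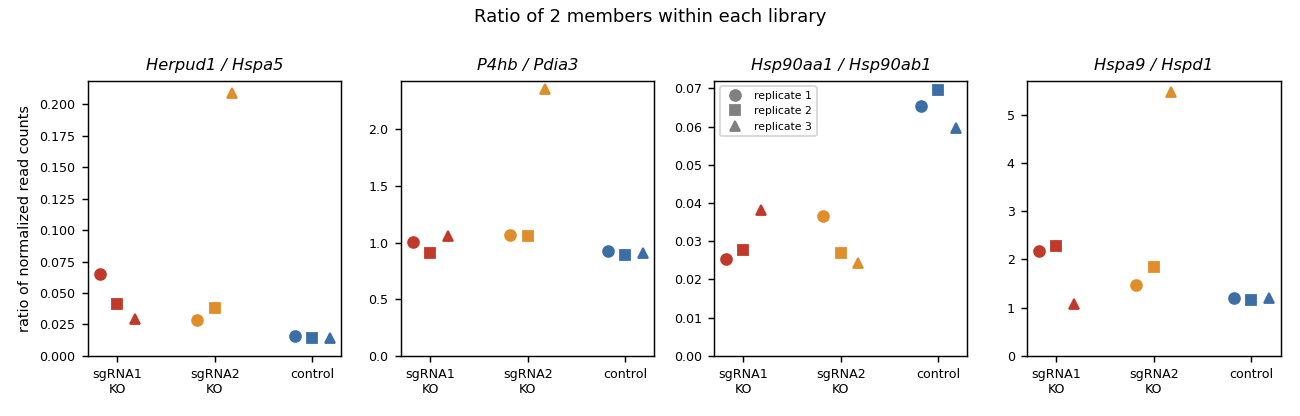
Ratios of the normalized read counts of 2 members within each library, by group (colour) and replicate number (shape). sgRNA2 KO replicate 3 (orange triangle) is the highest point for Herpud1 over Hspa5 (0.209), P4hb over Pdia3 (2.35) and Hspa9 over Hspd1 (5.48), while Hsp90aa1 over Hsp90ab1 is lower in all 6 KO libraries than in any control.

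Each guide was also set against the same 3 controls. With sgRNA1, 26 members fell and 2 rose (Atf6 and Dnajb9), against 18.9% and 17.1% of all tested genes (36.0% in either direction). With sgRNA2, 18 fell and 1 rose (Atf6), against 10.7% and 11.4% (22.1% in either direction). The 2 comparisons share their controls, so that calls in both are not separate evidence. The fall of Hspa5 was -1.16 with sgRNA1 (SE 0.22, limma adjusted p 0.00843) and -1.38 with sgRNA2 (SE 0.22, adjusted p 0.00577). That of Pdia6 was -1.26 with sgRNA1 (limma adjusted p 0.00748) and -1.26 with sgRNA2 (adjusted p 0.00912). That of Hsp90aa1 was -1.63 with sgRNA1 (limma adjusted p 0.011) and -1.68 with sgRNA2 (adjusted p 0.0132). Members that passed with sgRNA1 and not with sgRNA2 were Canx, P4hb, Xbp1, Stip1, Hspa4, Hsf1, Hspd1, Hspe1 and, upward, Dnajb9. With 3 libraries a group, these counts changed when single libraries were left out. Fewer libraries leave fewer degrees of freedom for every gene, but the counts moved both ways. Leaving out sgRNA1 KO replicate 3, which is in the fit of both guides, gave 30 members lower with sgRNA1 and 25 with sgRNA2. The share of all tested genes called in those fits is not given here, so the changes are not particular to the members. Leaving out control replicate 2 gave 7 members lower with sgRNA1, and leaving out control replicate 3 gave 11. Leaving out sgRNA1 KO replicate 1 gave 14, and leaving out sgRNA1 KO replicate 2 gave 15. For sgRNA2, leaving out control replicate 1, 2 or 3 gave 12, 5 or 6 members lower, and leaving out sgRNA2 KO replicate 2 gave 12.

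Between the guides, no difference passed for any member or any other gene. In sgRNA1 KO against sgRNA2 KO, limma called 0 of the 42 members and 0 of all 15827 genes, with a smallest adjusted p of 0.778 among members and 0.762 among all genes. At an unadjusted p under 0.05 stood 1 member, Cryab, and 2.99% of all genes (474). The 95% interval of the difference reached a median of 0.48 to either side on the log2 scale, from 0.27 for Syvn1 to 1.16 for Hspd1. These widths are not adjusted for the number of genes, so even differences somewhat larger than them were not detectable here. Cryab differed by 1.118 (95% interval 0.081 to 2.155) and had a limma adjusted p of 0.778. Hspa5 differed by 0.22 (95% interval -0.27 to 0.71) and Pdia6 by 0.005 (-0.51 to 0.52), sgRNA1 KO over sgRNA2 KO.

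Further genes of the ER folding pathway are read against the 20.2% of all tested genes that fell and the 19.1% that rose. In the translocon and signal peptidase, through which chains enter the ER, 4 of 16 tested genes fell (25.0%, near the share of all genes) and 1 rose in KO against control, with a median log2 fold change of -0.221. Sec61a1, the channel, had a log2 fold change of -0.84 (limma adjusted p 0.00335), Ssr1 -0.65 (adjusted p 0.0383) and Sec11c 0.53 (adjusted p 0.00981). In N-glycosylation and glycan trimming, 7 of 19 fell (36.8%) and 2 rose (median -0.272). They included Mogs, the first trimming glucosidase, at -1.08 (limma adjusted p 0.0155), Stt3a, a catalytic subunit of oligosaccharyltransferase, at -0.84 (adjusted p 0.0127), Alg1 at 0.59 (adjusted p 0.0381) and Magt1 at 0.29 (adjusted p 0.017). Among other isomerases and oxidases, 5 of 15 fell (33.3%) and 2 rose (median -0.162), with Pdia5 at -1.14 (limma adjusted p 0.02), Txndc5 at -0.996 (adjusted p 0.00668), Qsox1 at 0.83 (adjusted p 0.00954) and Ero1l, the oxidase that recharges P4hb, at 0.58 (adjusted p 0.0468).

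Among 17 further genes of ER degradation tested, 4 rose (Os9, Edem2, Rnf5 and Herpud2) and 1 fell (Ube2j1). The share that rose, 23.5%, was near the 19.1% of all genes, and the share that fell was 5.9%. The median log2 fold change was 0.032. Os9, a lectin that delivers glycoproteins to Hrd1, had 10150, 10087 and 5051 in sgRNA1 KO, 4596, 8106 and 10177 in sgRNA2 KO, and 3794, 3465 and 3472 in control. Its log2 fold change was 1.09 (SE 0.28, limma adjusted p 0.0136). Edem2, a mannosidase of the same route, gave 0.62 (limma adjusted p 0.00919), and Ube2j1, a ubiquitin-conjugating enzyme, gave -0.32 (adjusted p 0.0326). Of the stress sensor arms, Eif2s1, the subunit of eIF2 that PERK phosphorylates, fell by 1.44 on the log2 scale (limma adjusted p 0.0034). Of 11 genes of ATF6 and IRE1 processing, 1 fell, Creb3l2, a relative of ATF6, at -0.95 (limma adjusted p 0.004), and none rose (median -0.256).

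Most genes of the cytosolic chaperonin fell. Of 14 genes of TRiC, which folds actin and tubulin, and its partner prefoldin, 11 fell (78.6%) and 1 rose (7.1%). Their median log2 fold change was -0.684. Among all tested genes, 20.2% fell and 19.1% rose. Cct6a had 6350, 8235 and 12919 in sgRNA1 KO, 12984, 8132 and 9842 in sgRNA2 KO, and 24751, 28244 and 26072 in control, a log2 fold change of -1.48 (SE 0.22, limma adjusted p 0.00169). Pfdn4 gave -1.31 (limma adjusted p 0.00181) and Pfdn5 0.53 (adjusted p 0.0165). Of 26 other cytosolic chaperones and cochaperones, 9 fell (34.6%) and 3 rose (11.5%), with a median of -0.355. Fkbp5, an Hsp90 cochaperone of steroid receptors, gave -1.75 (limma adjusted p 0.00221), Hspb8 -1.50 (adjusted p 0.0158), Hspa12a 1.32 (adjusted p 0.0119) and Hsbp1, which binds heat shock factor, 0.37 (adjusted p 0.0221). Of 16 other mitochondrial folding genes and proteases, 2 fell (12.5%) and 1 rose (6.2%), with a median of -0.181. Both shares were under those of all tested genes. Htra2 was at -0.73 (limma adjusted p 0.0279), Afg3l2 at -0.68 (adjusted p 0.0136) and Hscb at 0.87 (adjusted p 0.00307).

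The promoter elements shown above were sought in all members and all genes. RefSeq windows of 300 bases, 250 before and 50 after the start site, were found for 34 of the 43 members. Each motif was sought on both strands. The ERSE-II holds the CCAAT letters of the ERSE on the other strand and the same CCACG end, and no window of a member held both. An ERSE or ERSE-II was in 10 of the 19 ER members with a window, in 0 of 13 cytosolic and in 0 of 2 mitochondrial members, and in 0.181% of all 27025 genes with a window. The 10 were Hspa5, Hsp90b1 (2 copies), Calr, Canx, Dnajb11, Dnajc3, Creld2, Pdia6, Herpud1 and Syvn1. Of these, 7 fell in KO and 3 (Canx, Herpud1 and Syvn1) did not pass, with a median log2 fold change of -0.791. Of the 9 ER members with a window and neither element, 5 fell and 4 did not pass, with a median of -0.512. The HSE was in Chordc1, Hsph1, Hspd1 and Hspe1, all of which fell, and in 0.662% of all genes, but Hspd1 and Hspe1 hold the same stretch, so that it counts for both. Of the 10 tested cytosolic and mitochondrial members with a window and no exact match to this HSE pattern, 4 fell (Stip1, Ahsa1, Hspa4 and Dnajb1) and 6 did not pass. The element TGACGTGG, bound by XBP1 and ATF6, was in no member window and in 0.714% of all genes, and the ATF4 core TGATGNAA was in Herpud1 alone among the members and in 4.51% of all genes. Hyou1, Manf, Atf6, Hsp90aa1, Hsp90ab1, Hspa8, Cryab, Hsf1 and Hspa9 had no window. These are matches of letters, not measured binding sites. Sites that depart from a pattern or lie outside the window are missed, so a member without a match may still hold the element.

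Some members share sequence with pseudogenes or close copies, and their levels are uncertain to that extent. Of the 50-base stretches in exons (GENCODE M21), 66.3% of those of Hspa1a and 62.3% of those of Hspa1b occur in another gene, chiefly in each other. The share was 50.1% for Hspb1, 47.5% for Hsp90aa1, 42.1% for Hspd1, 39.4% for Hspa8, 22.8% for Hspe1 and 20.6% for Dnaja1. Exons of 14 members overlap another gene, and for 11 of them the overlap is on the opposite strand, including Hspd1 with Hspe1, Pdia6 with Atp6v1c2 and Cryab with Hspb2. Whether the counting used strand is not given in the sources used here.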

How the data were processed

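Poly(A) RNA libraries of BTSC were grouped by their labels. Each deposited value is a score: a read count of a gene in a library that the authors had divided by a size factor and rounded, as its whole-number steps show. The submitters' processing notes name the build mm10 and the tools DESeq2, featureCounts and STAR 2.4.1d. The annotation release is not given in the sources used here. Totals of 39781901 to 42975283 make counting error small for all but low genes.

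Values were taken as log2(value + 1), which understates the change of low genes, and 15827 of 21899 genes, those averaging 10 or more, went into a two-sided limma-trend test (limma 3.58.1 in R 4.3.3) with Benjamini-Hochberg adjustment. KO against control used 2 groups, and the guides used 1 fit with 3 groups. Each fit took 1 spread per gene for all its groups. The SD was larger over the KO libraries than over the controls for every tested member, as in Hspd1 (6709 in KO, 2042.5 in control). No count model was run, since the values are normalized and rounded. The members, the pathway and marker lists and the alternatives were chosen with earlier results of these data known. Srp54a was not in the table, and Hspa14, whose symbol is listed more than once, was left out. The summed level of the oligodendrocyte markers is not reported here.

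Values in every library are given for the 3 largest fold changes that passed in each role, every member that passed upward, members with 1 KO library far from the rest, and Hspa5, Xbp1, Atf6, Ern1, Hsf1 and Hsf2. Other members named for their values were chosen after these were seen. From each further list, up to 2 genes that rose and 2 that fell are named. Positions, exon lengths and shared 50-base stretches came from GENCODE M21, and promoters from RefSeq GRCm38.p6. Of 39 member windows, 31 had a stretch from just after their start site in a GENCODE transcript of that gene. The start site itself was not checked in this way. Alternatives were pseudocounts of 0.5 and 5, no filter or a minimum mean of 50, quantile and median-of-ratios scaling, variance weights per group, a replicate block, fits of only the 6 libraries compared, and libraries left out. The pipeline was tested on simulated data. Python 3.11.15 with pandas 2.3.3 and matplotlib 3.10.9 was used for summaries and figures.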

Additional observations from a re-analysis of the deposited data

Results flagged for a closer look

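Among the 6 KO libraries, 4 of the 43 members had 1 library far from the rest by Dixon's test at the 95% level, and chance flags about 1 in 20 groups. In 3 of them it was sgRNA2 KO replicate 3. Herpud1 stood at 2199 there, with 978 as the next value. Xbp1 stood at 2244, with 1668 as the next value. Dnajc3 stood at 3084, with 4081 as the next value. Hspb1 stood at 4 in sgRNA1 KO replicate 1 and at 1 in the other 5, a difference of a few reads.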

How the results depend on the processing

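Of the 26 members that fell in KO against control, 18 kept the call in all 18 alternatives run for that comparison, and so did the rise of Atf6. The 8 that lost it in at least 1 were P4hb, Xbp1, Hsp90ab1, Stip1, Hspa4, Hsf1, Hspd1 and Hspe1, and the cause was not tested. Xbp1, Hsp90ab1 and Hspa4 lost it with quantile scaling as well as with libraries left out. No called value changed sign. The count of members that rose in KO was 2 with quantile scaling, 4 with variance weights per group and 2 without both libraries nearest the controls. The same settings gave 2, 3 and 2 for ER members, and variance weights gave 1 for cytosolic members. With sgRNA1 the count that rose was 1 with no filter on low values, and with sgRNA2 it was 2 with variance weights and 2 without both libraries nearest the controls. The share of all tested genes called in each alternative is not given here. Whether these changes in count are particular to the members therefore cannot be told.

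With 1 library left out at a time, 18 to 28 members fell and 1 to 3 rose in KO, 7 to 30 fell and 0 to 3 rose with sgRNA1, and 5 to 25 fell and 0 to 2 rose with sgRNA2. Among ER members 12 to 15 fell and 1 to 2 rose, among cytosolic members 6 to 10 fell and 0 to 1 rose, and among mitochondrial members 0 to 3 fell. None differed between the guides in any alternative run. Leaving out a control leaves 2 and fewer degrees of freedom for every gene. The share of all tested genes called with a library left out is not given here.

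Replicate numbers are shared between the groups, but same-numbered libraries deviated together unevenly (r from -0.345 to 0.332), so they share only a number. With the replicate number as a block, 26 members fell and 1 rose in KO, 27 fell and 2 rose with sgRNA1, and 16 fell and 1 rose with sgRNA2. Neither scaling moved the median of all genes by more than 0.1 on the log2 scale.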
